A study of Mus musculus with 9 samples.

Results

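The core cohesin genes were described in mouse lymphomas that carried either both alleles or only 1 allele of Smc3. They are 10 genes chosen by their role in the complex: the ring genes Smc3, Smc1a, Rad21, Stag1 and Stag2, the loader genes Nipbl and Mau2, and the releaser genes Wapal, Pds5a and Pds5b. All 10 were found in the table of 41128 genes, and all 10 passed the filter on low counts that left 14057 genes for testing. The rule used no measured value.

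RNA-seq counts were deposited for 9 tumors from IµBcl6 transgenic mice, in which an immunoglobulin promoter drives Bcl6 in B cells. The Bcl6 tumors (n = 3) were Smc3 wt/wt, the Smc3/Bcl6 tumors (n = 6) were Smc3 wt/-, and all of the mice carried Cγ1-Cre, which is active once a B cell joins the germinal center reaction. Cells other than B cells in a tumor are not targets of this Cre, and recombination was not measured by cell type. The first replicate of each genotype was labelled as mesenteric lymph node and the other tumors only as lymph node. Neither age nor sex was labelled. Each replicate was treated as a separate tumor, and p-values cover only the spread between these tumors.

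Cohesin is a ring of Smc3, Smc1a and the kleisin Rad21 that holds DNA and, with 1 of the alternative subunits Stag1 or Stag2, extrudes chromatin loops and keeps sister chromatids together. Nipbl and Mau2 form the loader that puts the ring on chromatin and drives its ATPase. Wapal opens the ring and, together with the scaffold proteins Pds5a and Pds5b, takes it off again. In germinal center B cells the ring shapes contacts between enhancers and promoters while the cells divide quickly.

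The targeted stretch of Smc3 is shown because the Smc3/Bcl6 genotype is defined by it. Smc3 (ENSMUSG00000024974.10, GRCm38, chromosome 19, 53600398 to 53645833, plus strand) was deleted by targeting exon 4, which spans chr19:53615106-53615173 in the principal transcript of 29 exons and is read here from GENCODE M21.
Smc3 exon 4: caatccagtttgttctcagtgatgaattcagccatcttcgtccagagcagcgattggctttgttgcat
All 68 bases of it are coding. The length leaves a remainder of 2 when divided by 3, and the exon makes up 1.4% of the 4851 bases of the transcript. The deposited values are counts per gene, so reads from exon 4 could not be told from reads of the other exons. A gene count would also take up any transcript of the deleted allele that lacks exon 4, so the values of Smc3 do not check the deletion itself.

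Total counts ranged from 10156728 to 17774577 per tumor. Values below are CPM, the count of a gene relative to the library total after scaling by the trimmed mean of M values, and a log2 fold change is that of Smc3/Bcl6 against Bcl6. One library stood apart: Smc3/Bcl6 tumor 2 had a scaling factor of 0.693 and its long transcripts were low. It also had the lowest quality weight in the limma voom fit, 0.125. Leaving out each tumor in turn was planned, while this tumor was singled out from the data. The fold changes of the members and the ratios that moved with it are therefore given with and without it. Marker genes of B cells were detected in every tumor, with summed levels of 10359 to 70972 CPM, most of it from Ighm (66172 of the 70972 CPM in Smc3/Bcl6 tumor 2). Pax5 was lowest in Smc3/Bcl6 tumor 2, at 2.96 CPM. Summed T cell markers ranged from 125 to 2838 CPM and macrophage markers from 266 to 8349 CPM. In bulk tumors, fewer cells of a type and less RNA per cell cannot be told apart.

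None of the 10 genes differed between the genotypes at an adjusted p below 0.05 or past the thresholds of the study, an unadjusted p below 0.1 with a log2 fold change beyond 0.56 in either direction. Of all 14057 genes tested, 1.28% were called higher and 0.868% lower by the latter thresholds, 79 had an unadjusted p below 0.05 and 0 had an adjusted p below 0.05. By DESeq2 the counts at those last 2 levels were 209 and 0. For 8 of the 10 genes the fold change was negative, with a median over the 10 of -0.20 on the log2 scale beside 0.06 over all genes. Without Smc3/Bcl6 tumor 2 the median was 0.01 beside 0.03 over all genes, 5 of the 10 were negative, and still 0 were called, beside 2.43% of all genes called higher and 1.39% lower. In both genotypes the values of each of the 10 genes overlapped, with and without that tumor. Of all genes tested, 0.484% had groups that did not overlap, and 1.42% without that tumor.

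**Figure D1:**
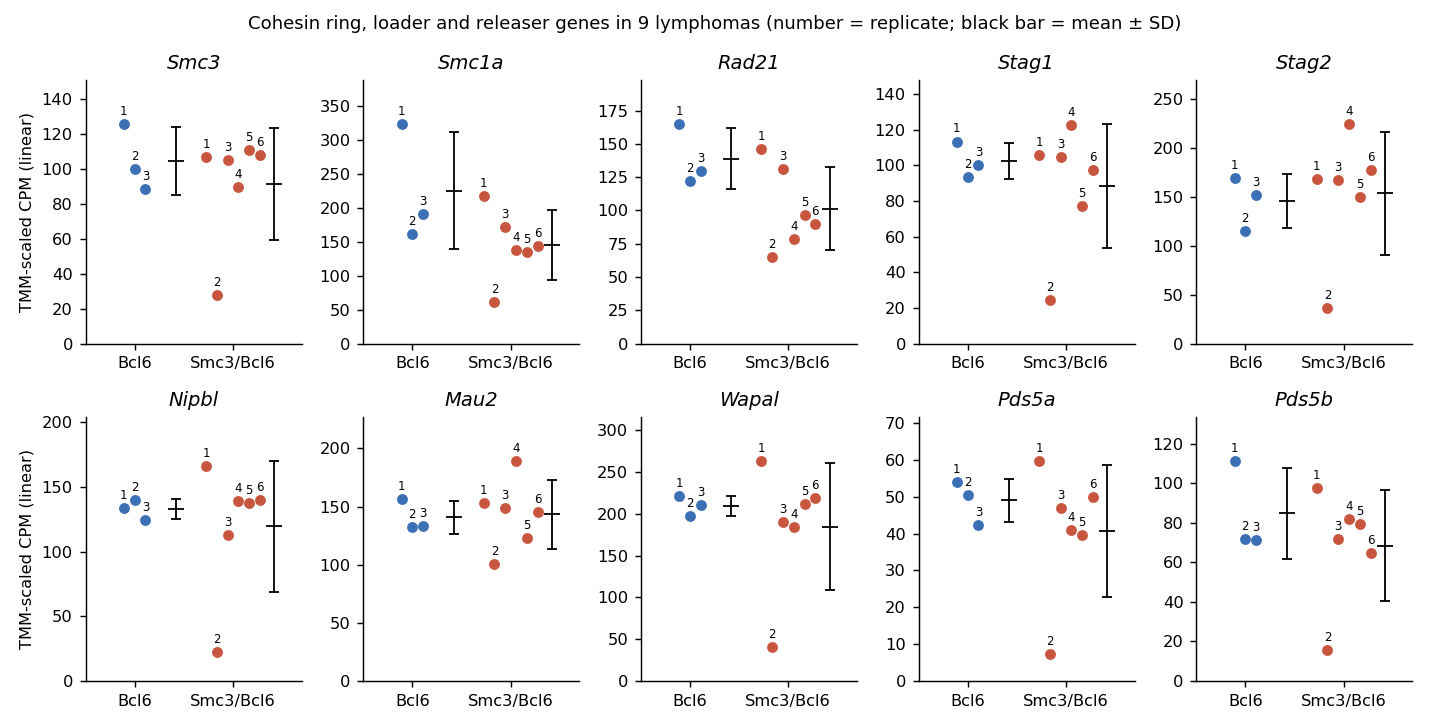
Each panel plots TMM-scaled CPM on a linear axis from 0 for 1 gene, with a numbered point for each of the 3 Bcl6 tumors (blue) and 6 Smc3/Bcl6 tumors (red) and a black bar for the group mean ± SD. Smc3/Bcl6 tumor 2 is the lowest of the 9 tumors in every panel, and the remaining points of the groups overlap.

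Smc3, the ATPase subunit whose allele was deleted, stood at 126, 99.5 and 88.1 CPM in Bcl6 tumors 1, 2 and 3. In the Smc3/Bcl6 tumors it ran from 27.9 CPM in tumor 2 to 111 CPM in tumor 5, with a median of 106. Apart from tumor 2, the Smc3/Bcl6 tumors all lay within the range of the Bcl6 tumors. The mean level was 104 ± 19.3 CPM (SD, n = 3) in Bcl6 and 91.4 ± 32.0 (SD, n = 6) in Smc3/Bcl6, and 104 ± 8.28 (SD, n = 5) in the latter without tumor 2. Loss of 1 allele in every cell of a tumor, with proportional loss of RNA, would be a log2 fold change of -1. The fitted log2 fold change was -0.19 (SE 0.385, 95% interval -1.05 to 0.67, edgeR quasi-likelihood adjusted p = 1.00), an interval that reached that value. An exact two-sided permutation test over the 84 ways to split the tumors gave p = 0.690, where 0.0119 is the smallest it can give. Without tumor 2 the log2 fold change was 0.01 (SE 0.141, 95% interval -0.31 to 0.34), and the interval stayed above -1. Cells that kept both alleles would make the change smaller, and their share was not measured. These intervals therefore do not test a halving within the B cells. The counts behind these levels were 932 to 2014 in the other 8 tumors and 264 in tumor 2.

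Smc1a (ENSMUSG00000041133.6, GRCm38 chromosome X, 152016428 to 152062694), the partner ATPase of Smc3, had the most negative fold change of the 10. It stood at 324, 162 and 191 CPM in Bcl6 tumors 1 to 3. In Smc3/Bcl6 tumors the level ran from 60.7 CPM in tumor 2 through a median of 141 to 218 in tumor 1. Bcl6 tumor 1 was far above every other tumor, and 3 of the Smc3/Bcl6 tumors besides tumor 2 fell below all Bcl6 tumors. The log2 fold change was -0.64 (SE 0.372, 95% interval -1.47 to 0.19, edgeR p = 0.116, adjusted p = 1.00; exact permutation p = 0.179), and -0.46 (SE 0.248, 95% interval -1.03 to 0.11) without tumor 2. Smc1a crossed the thresholds of the study when an offset for gene length and GC content was added (log2 fold change -0.58, SE 0.289, adjusted p = 1.00), where 0.797% of all genes were called lower. With the length of the principal transcript in that offset it was -0.57 (SE 0.246, 95% interval -1.12 to -0.01, adjusted p = 1.00), and 0.783% of all genes were called lower. The same happened when Bcl6 tumor 2 was left out (-0.82) and when Smc3/Bcl6 tumor 1 was left out (-0.79), with edgeR adjusted p of 1.00 in both fits and 1.11% and 1.05% of all genes called lower. Without Bcl6 tumor 1, the tumor with the highest level, it was not called and the log2 fold change was -0.35 (SE 0.427), and with limma voom it was -0.29 (SE 0.226).

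Rad21 (ENSMUSG00000022314.9, GRCm38 chromosome 15, 51962240 to 51991747), the kleisin that closes the ring between both ATPases, was at 165, 122 and 129 CPM in Bcl6 tumors 1 to 3. Its Smc3/Bcl6 levels ran from 65.2 CPM in tumor 2 through a median of 93.0 to 146 in tumor 1. Tumors 2, 4, 5 and 6 lay below every Bcl6 tumor, while tumors 1 and 3 lay among them. The log2 fold change was -0.46 (SE 0.286, 95% interval -1.09 to 0.18, edgeR p = 0.142, adjusted p = 1.00; exact permutation p = 0.119) and -0.34 (SE 0.224) without tumor 2. Rad21 was called lower without Smc3/Bcl6 tumor 1 (-0.59) and without Smc3/Bcl6 tumor 3 (-0.56), with edgeR adjusted p of 1.00 in both, where 1.05% and 2.32% of all genes were called lower.

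The alternative subunits Stag1 and Stag2 differ in where the ring sits: Stag1 is known for rings at stable boundary sites and Stag2 for shorter contacts within them. Stag1 (ENSMUSG00000037286.10, GRCm38 chromosome 9, 100597798 to 100959375) stood at 113, 93.4 and 100 CPM in Bcl6 tumors 1 to 3, and in Smc3/Bcl6 it ran from 24.3 in tumor 2 through a median of 101 to 123 in tumor 4. Stag2 (ENSMUSG00000025862.9, GRCm38 chromosome X, 42149317 to 42277185) stood at 169, 115 and 152 CPM in Bcl6 tumors 1 to 3, and in Smc3/Bcl6 it ran from 36.0 in tumor 2 through a median of 167 to 225 in tumor 4. Smc3/Bcl6 tumor 4 held the highest level of both genes and tumor 2 the lowest. The log2 fold changes were -0.21 (SE 0.410, 95% interval -1.12 to 0.71) for Stag1 and 0.08 (SE 0.452, 95% interval -0.93 to 1.09) for Stag2. Without tumor 2 they were 0.00 (SE 0.160) and 0.30 (SE 0.182, 95% interval -0.12 to 0.71).

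Nipbl (ENSMUSG00000022141.6, GRCm38 chromosome 15, 8290617 to 8444463), the larger part of the loader, stood at 134, 140 and 124 CPM in Bcl6 tumors 1 to 3. Its Smc3/Bcl6 levels ran from 22.0 CPM in tumor 2 through a median of 138 to 166 in tumor 1. Mau2 (ENSMUSG00000031858.10, GRCm38 chromosome 8, 70016123 to 70042734), which binds the start of Nipbl and keeps it stable, stood at 157, 132 and 133 CPM in Bcl6 tumors 1 to 3. For Mau2 the Smc3/Bcl6 levels ran from 101 CPM in tumor 2 through a median of 147 to 189 in tumor 4. Both genotypes held nearly the same levels of each loader gene once tumor 2 was set aside, 133 ± 7.73 against 139 ± 18.8 CPM for Nipbl and 141 ± 14.0 against 152 ± 24.0 CPM for Mau2 (SD, n = 3 and n = 5). The log2 fold change was -0.15 (SE 0.480, 95% interval -1.22 to 0.92) for Nipbl and 0.03 (SE 0.238, 95% interval -0.50 to 0.56) for Mau2, and 0.08 (SE 0.144) and 0.12 (SE 0.156) without tumor 2.

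Of the releasers, Wapal (ENSMUSG00000041408.11, now Wapl, GRCm38 chromosome 14, 34673928 to 34747983) was at 221, 197 and 211 CPM in Bcl6 tumors 1 to 3. It ran from 40.6 CPM in Smc3/Bcl6 tumor 2 through a median of 201 to 263 in tumor 1. Pds5a (ENSMUSG00000029202.9, GRCm38 chromosome 5, 65605721 to 65698273) was at 54.0, 50.5 and 42.4 CPM in Bcl6 tumors 1 to 3, and from 7.30 in Smc3/Bcl6 tumor 2 through a median of 44.0 to 59.7 in tumor 1. Tumors 1 and 2 of Smc3/Bcl6 were thus the highest and the lowest of all 9 for both genes. Pds5b (ENSMUSG00000034021.10, GRCm38 chromosome 5, 150673739 to 150810690) was at 111, 71.6 and 71.5 CPM in Bcl6 tumors 1 to 3, and ran in Smc3/Bcl6 from 15.6 in tumor 2 through a median of 75.6 to 97.7 in tumor 1. The highest Pds5b level was that of Bcl6 tumor 1. Log2 fold changes were -0.18 (SE 0.450, 95% interval -1.19 to 0.82) for Wapal, -0.27 (SE 0.488, 95% interval -1.35 to 0.82) for Pds5a and -0.31 (SE 0.455, 95% interval -1.32 to 0.71) for Pds5b. Without tumor 2 they were 0.04, -0.03 and -0.08, with SE of 0.151, 0.162 and 0.190.

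**Figure D2:**
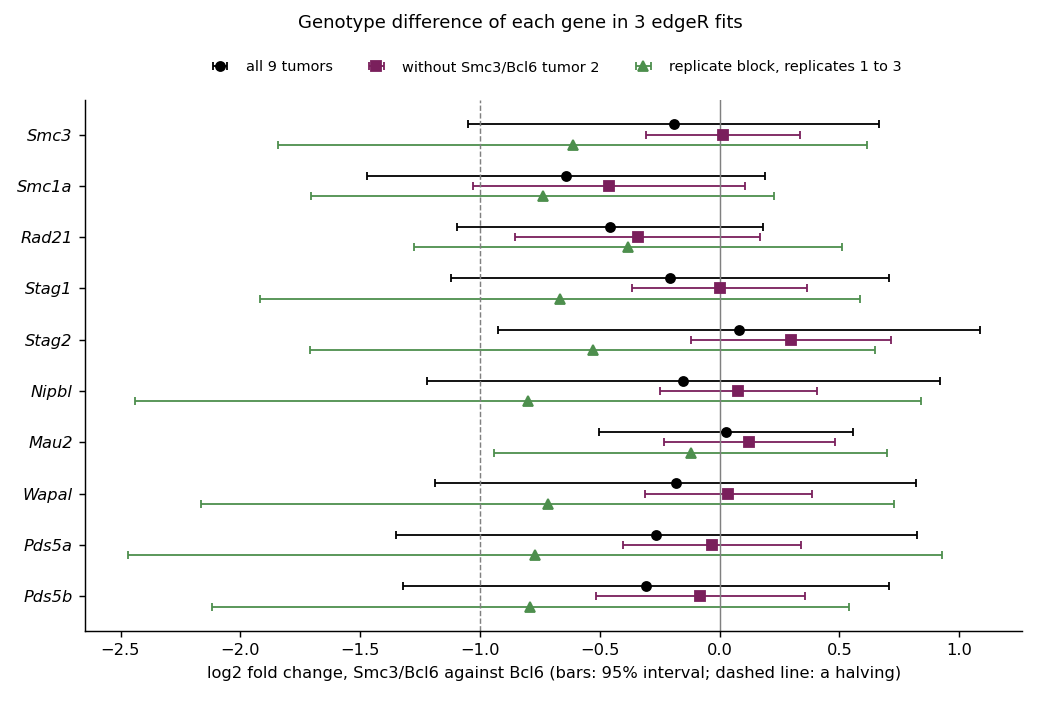
Points are log2 fold changes of Smc3/Bcl6 against Bcl6 for each gene and bars are 95% intervals, from edgeR fits of all 9 tumors (black), of 8 tumors without Smc3/Bcl6 tumor 2 (purple) and of replicates 1 to 3 of both genotypes blocked by number (green). The dashed line marks a log2 fold change of -1. The purple intervals are the narrowest for every gene, and with the block all 10 points are negative and none is called.

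When same-numbered tumors were paired through a block (3 pairs), the log2 fold change of Smc3 was -0.61 (SE 0.509, 95% interval -1.84 to 0.62) and those of all 10 genes were negative, from -0.80 for Nipbl to -0.12 for Mau2. None of the 10 was called. They were also all negative in the same 6 tumors with no block. Smc3/Bcl6 tumor 2 is 1 of the 3 Smc3/Bcl6 tumors in that subset. The labels do not call same-numbered tumors pairs. With the block, 0.337% of all genes were called higher and 1.90% lower.

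Smc3/Bcl6 tumor 2 held every member at a lower level than any other tumor, but not to the same degree. As a share of the median of the other 8 tumors, it held 68.4% of Mau2, 51.8% of Rad21, 36.3% of Smc1a and 26.4% of Smc3. The share was 15.1% for Pds5a and 15.9% for Nipbl, and between 19.3% and 23.8% for Stag1, Stag2, Wapal and Pds5b. Ordered by the length of the principal transcript, the deviation of tumor 2 from the mean of the other 8 went from -0.54 on the log2 scale for Mau2 (2887 bases) and -0.84 for Rad21 (3956 bases) to -2.68 for Pds5a (8934 bases) and -2.62 for Nipbl (9423 bases). Smc3, with 4851 bases, was at -1.89. Spearman's rho between length and deviation over the 10 genes was -0.964, a description of genes that share 1 library. With the summed length of all annotated exons it was -0.59, where Mau2 (9131 bases) is among the longer genes.

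The same order was present across the library. Over 13975 genes rho was -0.530 in Smc3/Bcl6 tumor 2 and lay between -0.022 and 0.322 in the other tumors. Genes with principal transcripts of up to 1000 bases (1567 genes) had a median deviation of 1.37 in tumor 2, and those of 7000 to 10000 bases (659 genes) one of -1.58. All 10 members lay below the trend over all genes, by -0.16 for Rad21, -0.37 for Mau2, -0.61 for Smc1a, -0.90 for Smc3 and down to -1.13 for Pds5a. The residuals of all genes about that trend had a median of 0.03, an SD of 1.25 and a 5th percentile of -2.19. Taken singly, each member was within that spread, while the median residual of the 10 was -0.91. How transcript length, RNA quality and genotype each bear on tumor 2 was not tested.

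**Figure D3:**
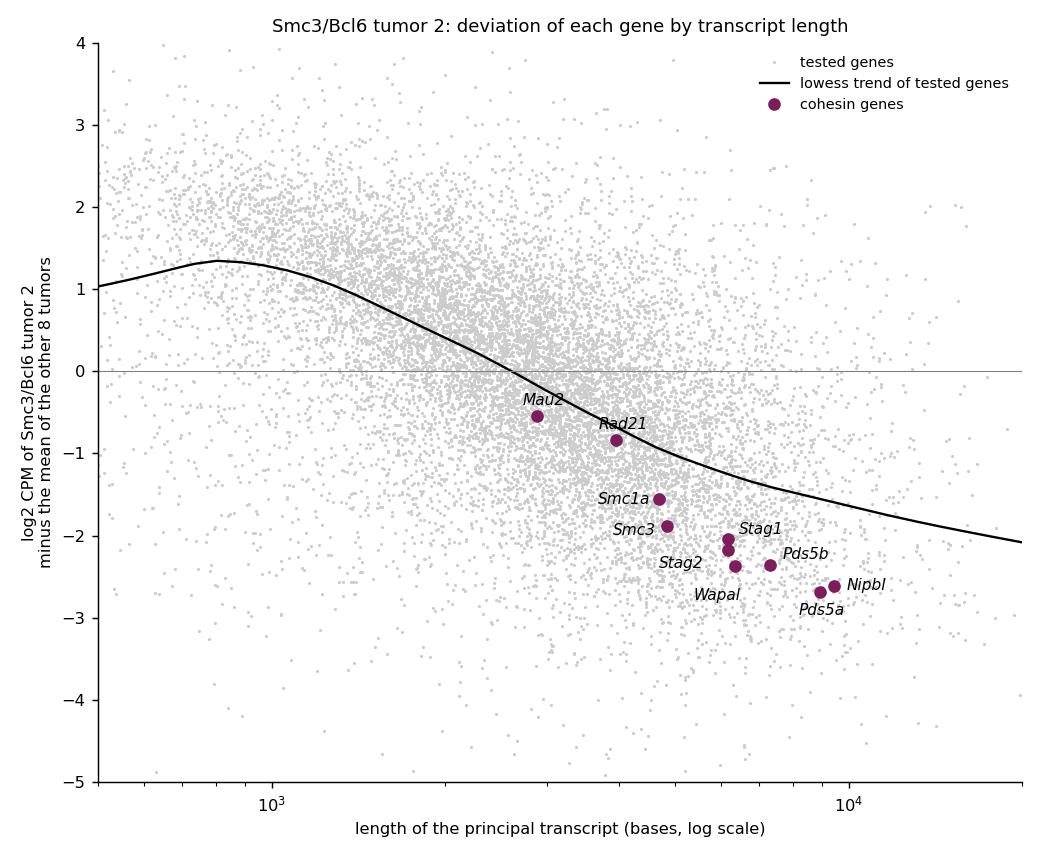
Each grey point is a tested gene (13414 of 13975 lie within the axes), with the length of its principal transcript in bases on a log axis and the log2 CPM of Smc3/Bcl6 tumor 2 minus the mean of the other 8 tumors on the vertical axis. The line is the lowess trend of all genes and the purple points are the 10 cohesin genes, which fall from -0.54 for Mau2 to -2.68 for Pds5a and all lie below the trend.

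Among the other 8 tumors most of the members were steady. The SD of log2 CPM was 0.159 for Nipbl, 0.160 for Wapal and 0.166 for Smc3, at the 4.10th, 4.16th and 4.89th percentiles of all tested genes. Stag1 (0.200), Mau2 (0.192) and Pds5a (0.205) lay at or below the 10.8th percentile. The most variable members were Smc1a, with an SD of 0.422 (48.7th percentile) and a highest level 2.40 times its lowest, and Rad21, with an SD of 0.370 (41.6th percentile) and a ratio of 2.10. For Smc3 the highest of these 8 tumors was only 1.43 times the lowest.

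Levels were compared between genes only per kilobase of principal transcript (CPM per kb, mean ± SD over the 8 tumors). Mau2 was highest at 51.1 ± 7.08, followed by Smc1a at 39.6 ± 13.4, Wapal at 33.4 ± 3.86, Rad21 at 30.3 ± 7.49 and Stag2 at 26.8 ± 4.98. These 5 and Smc3, at 21.5 ± 2.49, formed a run in which no mean log2 difference between neighbours exceeded its SD. Even so, Mau2 exceeded Smc1a and Stag2 exceeded Smc3 in 7 of 8 tumors each, and the other neighbours kept their order in 6 of 8. Smc3 exceeded Stag1 (16.5 ± 2.20) in 7 of 8 tumors, by 0.39 ± 0.28 on the log2 scale. Nipbl, at 14.5 ± 1.61, was not apart from Stag1 but exceeded Pds5b (11.1 ± 2.15) by 0.40 ± 0.25 in 7 of 8 tumors. Pds5a was lowest at 5.37 ± 0.772, below Pds5b in 8 of 8 tumors by 1.04 ± 0.25. The place of Mau2 depended on the length used: per kilobase of all its annotated exons it came 6th and Smc1a came first, at 32.2. Stag1 also fell, to 8.65, below Nipbl at 14.5.

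Ratios between partner genes within a tumor need no scaling of the library, and 10 were examined. Exact two-sided permutation tests with Benjamini-Hochberg adjustment over the 10 ratios were used. A single ratio can reach no adjusted p below 0.119 in this design, or 0.179 without a Smc3/Bcl6 tumor, so the adjusted values could not show a difference of 1 ratio alone, and none was below 0.05. Counts of Smc3 per count of Smc1a were 0.387, 0.614 and 0.462 in Bcl6 tumors 1 to 3 and ran from 0.460 in tumor 2 to 0.820 in tumor 5 of Smc3/Bcl6. The mean log2 difference was 0.36 (exact permutation p = 0.167, adjusted p = 0.833), so Smc3 was not measured as lower against its partner ATPase. It was 0.45 without Smc3/Bcl6 tumor 2, 0.21 without Bcl6 tumor 1 and 0.11 over the 3 same-numbered pairs. Counts of Smc3 per count of Rad21 were 0.761, 0.814 and 0.681 in Bcl6. They were 1.14, 1.15 and 1.21 in Smc3/Bcl6 tumors 4, 5 and 6, 0.730 and 0.801 in tumors 1 and 3, and 0.429 in tumor 2. The last 3 Smc3/Bcl6 tumors thus lay above all others and tumor 2 below (difference 0.19, exact permutation p = 0.607). Without tumor 2 the difference was 0.39 (exact permutation p = 0.107), without tumors 4, 5 or 6 in turn it was 0.11, 0.11 and 0.094, and over the 3 pairs it was -0.25.

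Stag1 against Stag2 was the ratio that differed most by its unadjusted p. It was 0.671, 0.812 and 0.660 in Bcl6 tumors 1 to 3, and 0.632, 0.677, 0.626, 0.546, 0.517 and 0.549 in Smc3/Bcl6 tumors 1 to 6. Every Smc3/Bcl6 tumor but tumor 2 was below every Bcl6 tumor. The log2 difference was -0.27 (exact permutation p = 0.0476, adjusted p = 0.476) and, without tumor 2, -0.31 (exact permutation p = 0.0357, adjusted p = 0.214). It was lower in each of the 3 same-numbered pairs, by a mean of -0.14, where the exact test can go no lower than p = 0.25. With values corrected for length and GC content it was -0.26 (exact permutation p = 0.190), and leaving out any tumor other than Smc3/Bcl6 tumor 2 gave p of 0.0714 to 0.214.

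**Figure D4:**
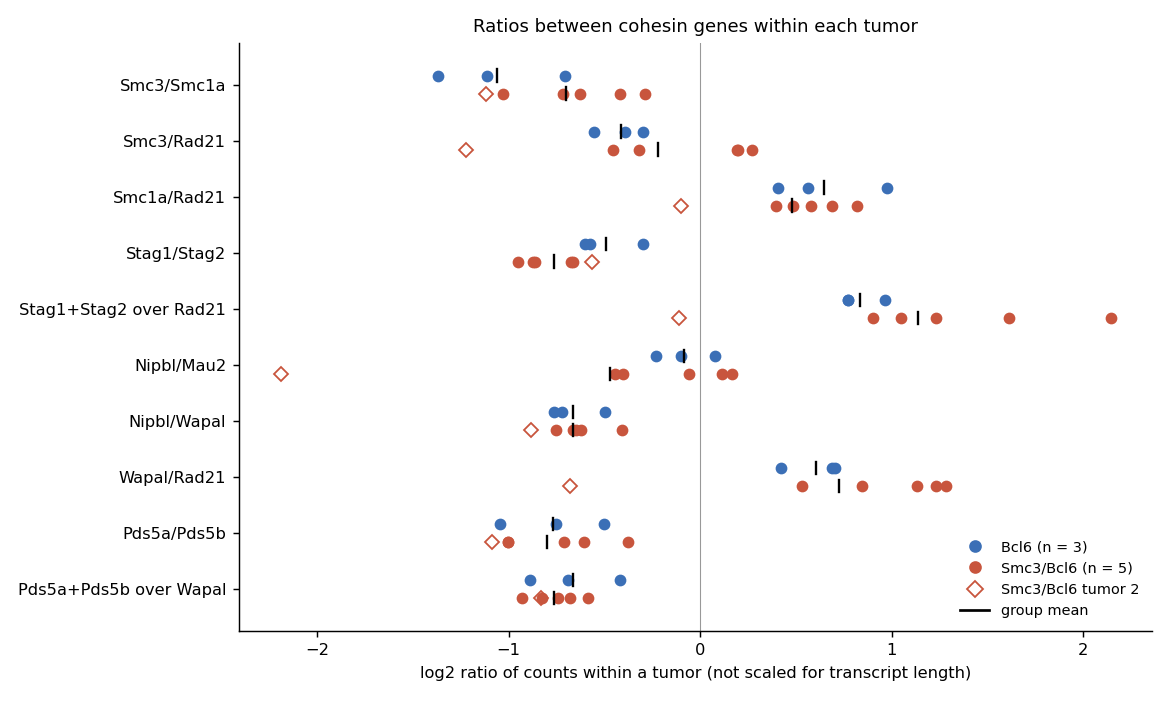
Each row is 1 ratio of counts within a tumor on a log2 axis, with filled points for the 3 Bcl6 (blue) and 5 Smc3/Bcl6 tumors (red), an open diamond for Smc3/Bcl6 tumor 2 and a black tick for each group mean. In the Stag1/Stag2 row the 5 filled red points lie to the left of the blue points and the diamond among them, and in the Nipbl/Mau2 row the diamond is far to the left.

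The sum of Stag1 and Stag2 counts per Rad21 count was 1.71, 1.71 and 1.95 in Bcl6 tumors. It was 0.925 in Smc3/Bcl6 tumor 2, 1.87 and 2.07 in tumors 1 and 3, and 4.42, 2.35 and 3.06 in tumors 4 to 6, which lay above all Bcl6 tumors (difference 0.30, exact permutation p = 0.524). The difference was 0.55 without tumor 2 (exact permutation p = 0.107), 0.10 without tumor 4 and -0.22 over the 3 pairs. Nipbl per Mau2, the balance of the loader, was 0.734 to 1.12 in 8 tumors and 0.219 in Smc3/Bcl6 tumor 2. Its difference was -0.39 with that tumor and -0.044 without it (exact permutation p = 0.619 and 0.821). Nipbl per Wapal, loader against releaser, was among the steadiest balances and stood between 0.542 and 0.753 in all 9 tumors (exact permutation p = 0.988). Pds5a per Pds5b lay between 0.471 and 0.771 and also overlapped between genotypes (exact permutation p = 0.857).

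Over all 45 pairs of members, the SD of the log2 ratio across the 8 tumors ranged from 0.0853 for Stag1 with Mau2 to 0.538 for Rad21 with Stag2, with a median of 0.270. Nipbl with Wapal (0.125) and Wapal with Pds5a (0.153) came next to the lowest. Smc1a with Stag2, both X-linked, was next to the highest at 0.512. Across all 9 tumors the steadiest pair was Nipbl with Wapal, at 0.143. Of the pairs of ring genes, Smc1a with Rad21 (0.203) and Stag1 with Stag2 (0.209) lay below the median over the 8 tumors, and all others lay above it.

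The genes most like Smc3 across all 9 tumors, by the smallest SD of their log2 ratio to it among 13124 genes ranked, were Casd1 (0.107), Cdc73 (0.115), Smarca4 (0.118), Wac (0.121) and R3hdm2 (0.125). Members came later, with Wapal (0.230) ranked 103, Pds5b (0.263) ranked 221 and Stag1 (0.268) ranked 245. All 5 of these genes were low in Smc3/Bcl6 tumor 2 as Smc3 was. Over the 8 tumors without it the 5 closest were others, Eif2b4, Zfp932, Pigu, Taf5l and Shc1, with SDs of 0.0478 to 0.0816, and Wapal was ranked 722.

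Proliferation markers were set beside the members. The mean log2 CPM of 10 genes of cycling cells was 7.49, 6.72 and 6.55 in Bcl6 tumors 1 to 3. In Smc3/Bcl6 tumors 1 to 6 it was 6.68, 7.08, 6.63, 5.43, 6.31 and 6.09. Smc3/Bcl6 tumors 4, 5 and 6 had the lowest 3 means, and with tumor 2 the same tumors had the lowest 4 levels of Rad21 and of Smc1a, while Stag2 was highest in tumor 4. Tumor 2 went the other way: it had the lowest Rad21 and Smc1a, but its cycling mean of 7.08 was below only that of Bcl6 tumor 1. That mean joins genes that split to both ends in tumor 2. Its Mki67 (53.5 CPM) and Top2a (79.9 CPM) were the lowest of all tumors. By contrast, its Ccnb2 (274 CPM), Cdk1 (291), Aurka (126), Mcm5 (452) and Pcna (172) were the highest. Of the 10 cycling genes, 9 had a negative fold change and 2 were called lower, Top2a (log2 fold change -0.96) and Bub1 (-1.04), both with an edgeR adjusted p of 1.00, beside 0.868% of all genes called lower. Without Smc3/Bcl6 tumor 2 all 10 were negative and 4 were called lower (Top2a, Ccnb2, Aurka and Mcm5), with a median of -0.67, beside 1.39% of all genes. The part of cycling in the levels of Rad21 and Smc1a was not tested.

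**Figure D5:**
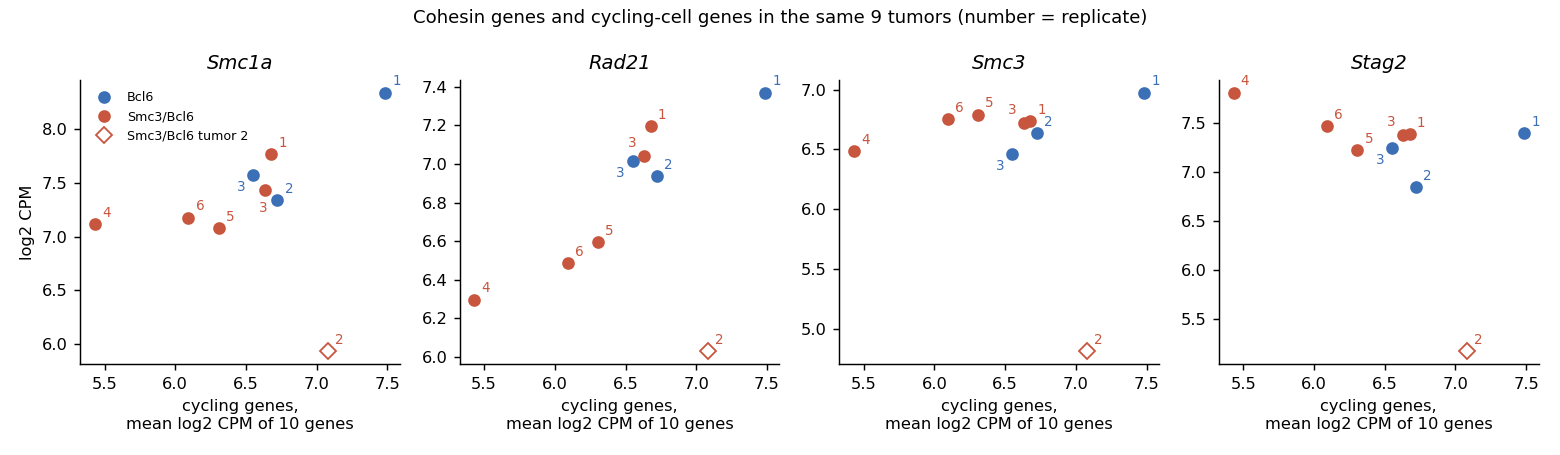
Each panel sets the log2 CPM of a cohesin gene against the mean log2 CPM of 10 cycling-cell genes in the same tumor, with numbered points for Bcl6 (blue) and Smc3/Bcl6 (red) and an open diamond for Smc3/Bcl6 tumor 2. Outside tumor 2, Rad21 is lowest in Smc3/Bcl6 tumors 4, 6 and 5, whose cycling means are 5.43, 6.09 and 6.31, while Smc3 stays within a narrow band.

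The median level of a whole chromosome also shifted between tumors, and the members were read beside it. On chromosome 19, which holds Smc3, the median deviation of 473 genes from the mean of the 8 tumors was the highest of 20 chromosomes in Smc3/Bcl6 tumors 2 (0.26), 5 (0.27) and 6 (0.15), on the log2 scale. Relative to that median, Smc3 was at 0.12, -2.14, 0.05, -0.11, -0.17 and -0.09 in Smc3/Bcl6 tumors 1 to 6. In the Bcl6 tumors Smc3 lay between -0.14 and 0.28. On chromosome 15, with Rad21 and Nipbl, the median of 523 genes was highest in Smc3/Bcl6 tumor 1 (0.32) and lowest in tumors 4 (-0.18) and 5 (-0.13). Rad21 stood at 0.004, -1.05, 0.19, -0.39, -0.15 and -0.35 relative to that median in Smc3/Bcl6 tumors 1 to 6. The 3 Bcl6 tumors were at 0.06 to 0.50, so the groups overlapped through Smc3/Bcl6 tumor 3. Myc, also on chromosome 15, ranged from 151 to 201 CPM in Bcl6 and from 127 to 285 CPM in Smc3/Bcl6. The 285 CPM was that of tumor 2, and the next highest was 211 CPM in tumor 1. DNA copy number was not measured in these samples.

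Smc1a and Stag2 lie on the X chromosome, whose median deviation stayed between -0.11 and 0.17 in all tumors. Xist, the RNA that coats an inactive X, was between 26.1 and 110 CPM in Bcl6 and between 3.39 and 49.4 CPM in Smc3/Bcl6. Ddx3y of the Y chromosome was between 75.3 and 131 CPM in Bcl6 and between 2.65 and 234 CPM in Smc3/Bcl6. Smc3/Bcl6 tumor 2 had the lowest value of both genes, and the next lowest Ddx3y was 34.1 CPM in tumor 1. Both were detected in every tumor and the sex of the mice was not labelled, so the X-linked members could not be compared by sex.

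Of 21 other genes of the cohesin cycle (acetyltransferases, protectors, the separase system, cofactors and meiotic subunits), 20 were tested and 1 was called higher and 1 lower, while 14 had a negative fold change and the median was -0.24. Over all genes 1.28% were called higher and 0.868% lower, and 42.6% had a negative fold change. Without Smc3/Bcl6 tumor 2, 1 was called higher and 3 lower (Esco2, Sgol1 and Aurkb), 15 were negative and the median was -0.31. In that fit 2.43% of all genes were called higher and 1.39% lower, and the median over all genes was 0.03. Esco2, the acetyltransferase that locks the ring on sister chromatids by acetylating Smc3 in S phase, stood at 66.7, 27.6 and 23.2 CPM in Bcl6 and from 13.6 to 24.6 CPM in Smc3/Bcl6. It was highest in Bcl6 tumor 1, and the groups overlapped (log2 fold change -0.98, SE 0.354, edgeR adjusted p = 1.00, and -0.96 without Smc3/Bcl6 tumor 2). Rec8, the meiotic counterpart of Rad21, was low throughout, at 0.864 to 2.12 CPM in Bcl6 and 1.78 to 8.45 CPM in Smc3/Bcl6. Its groups overlapped too (log2 fold change 1.71, SE 0.679, edgeR adjusted p = 1.00, and 1.84 without Smc3/Bcl6 tumor 2). With the replicate block 18 of the genes were tested and neither was called. Esco2 was not called without Bcl6 tumor 1, nor Rec8 without Bcl6 tumor 2. Rad21l had no counts in any tumor.

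Sequence shared with other genes was present in 7 of the 10 members. Of the 50-base windows of their exons, at most 1.64% (Mau2) also occurred in another annotated gene, 1.37% in Smc3 and 0 in Smc1a, Rad21 and Nipbl. Between the 10 members 0 windows were shared.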

How the data were processed

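Libraries of tumor RNA were made with the Illumina TruSeq kit, aligned to mm10 and counted per gene by the authors, who deposited the raw counts. The strand setting of the counting is not given in the sources used here. The submitters' processing notes name R 4.0.2 and DESeq2 1.28.1. All 9 columns were assigned to tumors by their labels, leaving 0 columns without a sample. Of the gene IDs, 97.87% were found in GENCODE M21, from which positions, lengths and exon 4 were read; this release is not the one used for counting. The files are for whole tumors, so cell types cannot be separated.

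Counts were fitted with edgeR 4.0.16 in R 4.3.3 (filterByExpr, TMM scaling, quasi-likelihood test, genotype only, Benjamini-Hochberg over 14057 genes); the common dispersion was 0.380. Log2 CPM used a prior count of 2 and ratios used counts plus 0.5. A gene was called at an unadjusted p below 0.1 with an absolute log2 fold change above 0.56, or at an adjusted p below 0.05. Single values were compared by exact two-sided permutation of tumors (scipy 1.17.1). Alternatives were DESeq2 1.42.0, limma 3.58.1 voom with quality weights, other scalings, no filter, offsets for length and GC content (lowess span 0.3), the tissue label, a replicate block and each tumor left out. Of 22 alternatives for the counts of genes, 19 were planned and 3 were chosen after seeing the data: both offsets from the principal transcript, and the offset without Smc3/Bcl6 tumor 2.

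The replicate numbers come from the labels, which do not call same-numbered tumors pairs. Deviations of same-numbered tumors had r = 0.443, 0.113 and 0.155 over genes for replicates 1 to 3. Other number combinations gave r of -0.454 to 0.356, the highest for Bcl6 tumor 2 with Smc3/Bcl6 tumor 3. These values do not settle whether the numbers pair the tumors. The replicate block was therefore only an alternative, and the reported fits and permutations have no block.

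All 10 members were named, with those genes of the cohesin cycle list that passed the call thresholds or did not overlap, and the 5 genes most like Smc3 over 9 tumors. The 5 closest over 8 tumors were named after their values were seen. Members and lists were chosen with earlier results of these data known.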

Additional observations from a re-analysis of the deposited data

Results flagged for a closer look

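In 8 of 20 measures examined (the 10 genes on log2 CPM and the 10 within-tumor ratios), Smc3/Bcl6 tumor 2 lay far below the other 5 Smc3/Bcl6 tumors. Its gap to the nearest tumor, as a share of the whole range of the group, was 0.847 for Smc3, 0.714 for Stag1, 0.778 for Stag2, 0.808 for Nipbl, 0.810 for Wapal, 0.804 for Pds5a and 0.775 for Pds5b. For Nipbl per Mau2 it was 0.741. Each was above Dixon's 95% critical value for 6 tumors, and chance flags about 1 in 20 groups. The 8 measures share that library and are not independent. Levels in that library also varied with transcript length over all genes (rho -0.530 over 13975 genes). The share of all tested genes past the critical value was not examined, so the count cannot be read as particular to the members. Smc1a, at 0.624, was just under that value, and Rad21 (0.230) and Mau2 (0.335) were well under it.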

How the results depend on the processing

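No gene of the 10 was called higher, and none had an adjusted p below 0.05, under any of the 22 alternatives. The number called lower was 0, but 1 with the offset for length and GC content and 1 with the offset for principal transcript length and GC content (Smc1a in both), and 0 to 2 when each tumor was left out. The cause was not tested. The log2 fold change of Smc3 turned positive with limma voom (0.058) and without Smc3/Bcl6 tumor 2 plus the length and GC offset (0.032), and ran from -0.30 to 0.013 when each tumor was left out. With tumor 2 left out and that offset, values of 0.028 for Nipbl and 0.037 for Wapal were also reversed, as was Wapal with voom (0.029).

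With the replicate block over replicates 1 to 3, Stag2 was -0.53 and Mau2 -0.12, without the block Stag2 was -0.24 and Mau2 -0.089, with the block and the length and GC offset Stag2 was -0.14, and with the block and the principal transcript offset Mau2 was -0.090. The paired differences of the ratios reversed for Smc3/Rad21 (-0.25), Stag1+Stag2 over Rad21 (-0.22) and Wapal/Rad21 (-0.37), and beside the calls of the cohesin cycle list the block ended none. Leaving out each tumor gave ranges of -0.074 to 0.30 for Stag2, -0.27 to 0.078 for Nipbl, -0.076 to 0.12 for Mau2 and -0.31 to 0.037 for Wapal. For ratios the ranges that crossed 0 were -0.053 to 0.079 for Nipbl/Wapal, -0.17 to 0.10 for Pds5a/Pds5b and -0.21 to 0.025 for Pds5a+Pds5b over Wapal. Corrected for length and GC content, Nipbl/Wapal was 0.023 and Pds5a/Pds5b 0.031.

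Genes of the cohesin cycle list called higher were 1, and 0 with the replicate block (also with either offset) and in the same 6 tumors with no block. Those called lower were 1, but 0 in these 4 fits, 3 with limma voom, 2 with no filter and 4 without Smc3/Bcl6 tumor 2 plus the length and GC offset. Leaving out each tumor gave 0 to 1 higher and 0 to 3 lower, with 3 lower without Bcl6 tumor 2, without Smc3/Bcl6 tumor 1 or without Smc3/Bcl6 tumor 2. Over all genes the calls ranged widely, with 180 higher and 122 lower in the reported fit, 642 and 1002 with voom, 342 and 101 with DESeq2, 576 and 812 with no filter, 45 and 254 with the block, 84 and 161 without Bcl6 tumor 2, and 98 and 61 without Smc3/Bcl6 tumor 6. Totals of 10156728 to 17774577 counts and 3 Bcl6 tumors limit the precision.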
